A study of Mus musculus with 30 samples.

Results

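The genes of voltage-gated calcium channels, voltage-gated sodium channels and hyperpolarization-activated (HCN) channels were followed across mouse brain tumors and normal mouse brain. They were taken by gene symbol and not by any cut on their values, although these families were chosen with earlier results of these data known. They were the pore-forming Cacna1 genes, the accessory Cacna2d and Cacnb genes, and the Hcn genes. The sodium channel genes were the pore (Scn, ending in a) and accessory (ending in b) genes. Of 19938 genes with a probe set assigned to that gene alone, 31 were such channel genes: 10 Cacna1, 4 Cacna2d, 3 Cacnb, 8 sodium channel pore, 3 sodium channel accessory and 3 Hcn genes. Other members of these families were not analysed here. No filter on low signal was applied, so all 31 entered every test.

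The 30 arrays held 5 groups of tumors and 2 of normal tissue. The tumors had followed injection of a construct that expresses Cre recombinase from the promoter of GFAP (an astrocyte gene), SYN1 (a neuron gene) or NES (a neural progenitor gene). There were 4 GFAP cortex tumors, 4 SYN1 cortex tumors, 7 GFAP hippocampus tumors, 4 NES hippocampus tumors and 3 GFAP tumors of the subventricular zone (SVZ), beside 4 normal cortex and 4 normal hippocampus samples with no promoter given. The labels give no strain, age, sex or allele acted on by Cre, and do not say which samples come from different animals. The p-values below therefore rest on how far these particular samples vary, and that variation may be technical. No normal SVZ sample was named, and SVZ tumors were set against the mean of both normal regions. A promoter names the cells in which Cre was meant to act, not the cells the tumor held when it was dissected.

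Voltage-gated channels open when the membrane potential changes. Sodium channels carry the rapid upstroke of the action potential and are anchored at the axon initial segment and nodes. Calcium channels turn depolarization into calcium entry, which triggers transmitter release at terminals (P/Q- and N-type), signals to the nucleus (L-type) or supports burst firing (T-type). HCN channels open on hyperpolarization and set resting potential and rhythm. In brain these genes are read mostly in neurons, although oligodendrocyte precursors and other glia also express several of them.

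All values are the deposited log2 values, 1 per gene and array, and a difference of 1 is a 2-fold change. A gene was called when limma, fitted to all 30 arrays and all 19938 genes, gave a Benjamini-Hochberg adjusted p under 0.05. Because part of every signal is background, a low value is not a measure of no expression. Levels of one gene were never set against those of another.

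Most channel genes were called lower in 4 of the 5 tumor groups, NES hippocampus tumors being the exception, and none was called higher in any group. In SYN1 cortex tumors 26 of 31 fell (83.9%), against 20.5% of all genes called lower and 18.2% called higher there. In GFAP cortex tumors 18 fell (58.1%, against 18.8% of all genes lower and 9.0% higher), in GFAP hippocampus tumors 20 (64.5%, against 25.2% and 16.1%), and in GFAP SVZ tumors 21 (67.7%, against 21.4% and 16.2%). In NES hippocampus tumors 2 of 31 fell, Cacna1h and Scn3b (6.45%, against 2.86% and 5.69%). The median log2 difference of the 31 genes was -1.32 in GFAP cortex, -1.99 in SYN1 cortex, -1.23 in GFAP hippocampus, -0.37 in NES hippocampus and -1.62 in GFAP SVZ tumors, whereas the median of all genes lay between -0.10 and 0.00. These comparisons share their normal samples and are not independent of each other.

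Separation of the groups was read array by array. Every tumor array was below every normal array for 17 channel genes in GFAP cortex tumors (23.9% of all genes did so), for 26 in SYN1 cortex tumors (25.9%), for 16 in GFAP hippocampus tumors (17.8%), for 7 in NES hippocampus tumors (11.0%) and for 23 in GFAP SVZ tumors (23.2%). There were 15 genes called lower in all 4 groups other than NES tumors: Scn1a, Scn2a, Scn8a, Scn2b, Scn3b, Cacna1a, Cacna1b, Cacna1e, Cacna1g, Cacna1i, Cacna2d1, Cacna2d3, Cacnb1, Cacnb4 and Hcn3. Scn3b alone was called lower in all 5. Cacna1f, Cacna1s, Cacnb2, Scn9a and Scn11a were called in none. By family, SYN1 cortex tumors had 8 of 10 Cacna1, 4 of 4 Cacna2d and 2 of 3 Cacnb genes called lower. They also had 6 of 8 sodium channel pore, 3 of 3 sodium channel accessory and 3 of 3 Hcn genes called lower. Of all genes, 20.5% were called lower there.

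**Figure D1:**
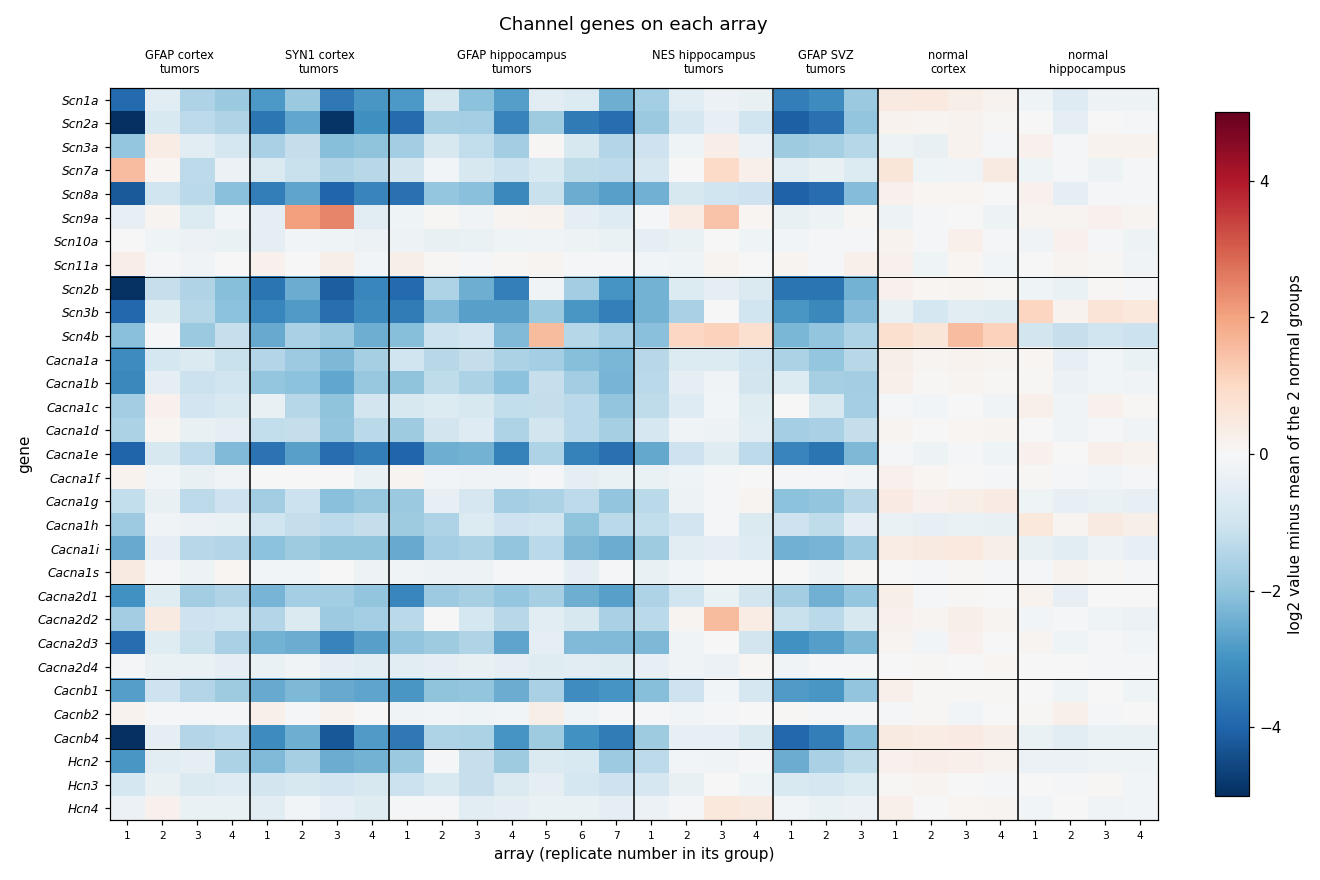
Each cell is the log2 value of a channel gene (row) on an array (column) minus the mean of the normal cortex and normal hippocampus means (blue lower, red higher, color limits at -5 and 5). Most rows are blue across the tumor columns, and GFAP cortex tumor 1 and SYN1 cortex tumor 3 are the darkest of the cortex tumors. NES hippocampus tumors 2 to 4 are close to normal in many rows but not in all. For 7 channel genes every NES tumor lay below every normal hippocampus array.

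Some arrays stood apart from their groups. GFAP cortex tumor 1 and GFAP hippocampus tumors 5, 6 and 7 lay between 55.9 and 74.7 on the second principal component over all genes. This component held 14.2% of the variance, and the other 26 arrays lay between -33.0 and 13.2. These 4 arrays also had the narrowest spread of values, with interquartile ranges of 1.88, 2.18, 2.40 and 2.28. The other arrays had 2.45 to 3.03. The part of this narrower spread in the channel values was not tested. Without these 4 arrays the numbers of channel genes called lower were 18 in GFAP cortex, 26 in SYN1 cortex, 22 in GFAP hippocampus, 7 in NES hippocampus and 22 in GFAP SVZ tumors, and 20.5%, 25.6%, 26.4%, 8.2% and 25.9% of all genes were then called lower in those groups. GFAP cortex tumor 1 also had the highest mean of 5 measured fibroblast and Schwann cell markers, 2.92 above normal, and of 8 muscle markers, 0.94 above normal.

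Markers of several cell types differed between tumors and normal tissue. Of 18 neuron markers, which include Snap25, Syt1, Rbfox3 and Slc17a7, 12 fell in GFAP cortex, 14 in SYN1 cortex, 11 in GFAP hippocampus, 0 in NES hippocampus and 15 in GFAP SVZ tumors. The mean of the neuron markers, minus normal, ranged from -3.26 to -0.66 in GFAP cortex, -2.71 to -1.89 in SYN1 cortex, -2.43 to -0.81 in GFAP hippocampus, -1.35 to -0.07 in NES hippocampus and -2.57 to -1.42 in GFAP SVZ tumors, against -0.25 to 0.24 on the normal arrays. The mean of the 31 channel genes on the same scale ran from -2.08 to -0.33, -1.91 to -1.30, -1.81 to -0.74, -1.29 to -0.01 and -1.73 to -1.21 in those tumor groups, against -0.19 to 0.16 on the normal arrays. The array lowest in both measures was GFAP cortex tumor 1, and the tumor array highest in both was NES hippocampus tumor 3. Cell cycle genes moved the other way, with 6 of 7 higher in GFAP cortex tumors and 7 of 7 in each other tumor group. Oligodendrocyte markers also fell, 7 of 7 in GFAP cortex, SYN1 cortex and GFAP SVZ tumors, 4 in GFAP hippocampus and 0 in NES hippocampus tumors. In GFAP cortex, SYN1 cortex, GFAP hippocampus, NES hippocampus and GFAP SVZ tumors, in that order, 1, 2, 2, 0 and 4 of 8 oligodendrocyte precursor markers fell and 0, 0, 1, 1 and 0 rose. Of 9 astrocyte markers 2, 5, 0, 0 and 5 fell and 0, 0, 1, 0 and 0 rose. Microglia and macrophage markers rose (5, 5, 6, 6 and 5 of 9), as did endothelial markers (2, 5, 5, 1 and 5 of 6). None of these fell. In the same order, 18.8%, 20.5%, 25.2%, 2.86% and 21.4% of all genes were called lower. Called higher were 9.0%, 18.2%, 16.1%, 5.69% and 16.2% of all genes. Whether any marker count exceeds these shares was not tested. The part of any of these cell types in the channel values was not tested. In bulk tissue, fewer neurons and less channel RNA per neuron cannot be told apart.

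**Figure D2:**
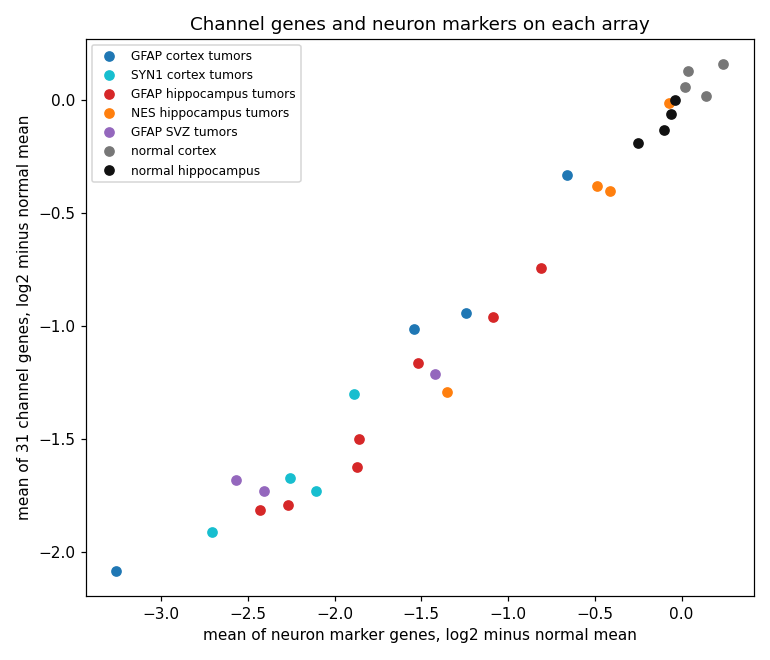
Each point is an array: mean of 18 neuron markers (x axis) and mean of 31 channel genes (y axis), both as log2 values minus the normal mean, colored by group. Arrays low on one axis are low on the other, from GFAP cortex tumor 1 (-3.26 and -2.08) to the normal arrays around 0; the points share their array, so the plot is a description.

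Before the single genes, the promoters of the 4 genes with the largest falls in SYN1 cortex tumors are given, to show their base composition. RefSeq sequence (GRCm38.p6) around a transcription start was matched for 24 of the 31 genes, 33 promoters of 300 bases in all. The most upstream listed promoter is shown for Scn2a (chr2:65620519-65620818, plus strand), Scn2b (chr9:45117626-45117925, plus strand), Scn8a (chr15:100870395-100870694, plus strand) and Cacnb4 (chr2:52676094-52676393, minus strand), 5′ to 3′, with CG dinucleotides in capitals.
Scn2a: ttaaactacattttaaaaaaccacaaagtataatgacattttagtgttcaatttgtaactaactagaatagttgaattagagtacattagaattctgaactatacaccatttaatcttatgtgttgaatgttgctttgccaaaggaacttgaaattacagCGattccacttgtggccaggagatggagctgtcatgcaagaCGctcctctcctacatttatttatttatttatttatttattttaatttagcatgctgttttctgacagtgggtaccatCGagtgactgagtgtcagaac
Scn2b: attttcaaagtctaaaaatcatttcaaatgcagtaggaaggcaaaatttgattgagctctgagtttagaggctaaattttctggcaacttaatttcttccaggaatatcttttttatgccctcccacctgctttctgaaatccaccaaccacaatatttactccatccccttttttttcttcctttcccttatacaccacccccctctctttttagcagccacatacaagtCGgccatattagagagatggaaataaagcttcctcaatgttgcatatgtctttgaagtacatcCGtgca
Scn8a: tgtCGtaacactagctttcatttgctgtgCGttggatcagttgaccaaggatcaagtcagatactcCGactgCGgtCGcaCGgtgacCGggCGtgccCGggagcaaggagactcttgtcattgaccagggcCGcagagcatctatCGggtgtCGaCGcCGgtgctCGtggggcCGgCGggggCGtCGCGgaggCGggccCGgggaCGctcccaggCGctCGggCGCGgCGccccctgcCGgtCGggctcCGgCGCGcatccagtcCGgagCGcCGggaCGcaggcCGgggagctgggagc
Cacnb4: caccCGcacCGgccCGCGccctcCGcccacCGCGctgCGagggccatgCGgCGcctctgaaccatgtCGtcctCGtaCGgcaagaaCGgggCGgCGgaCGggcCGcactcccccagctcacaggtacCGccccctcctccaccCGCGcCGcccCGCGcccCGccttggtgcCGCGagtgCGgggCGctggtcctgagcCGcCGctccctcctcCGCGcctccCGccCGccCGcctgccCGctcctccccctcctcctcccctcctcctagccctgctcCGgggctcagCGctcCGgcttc
In the promoters shown, Scn2a and Scn2b are A- and T-rich, with 33.0% and 38.3% G+C and 3 and 2 CG dinucleotides. Scn8a and Cacnb4 are CG-rich, with 70.0% and 78.3% G+C and 38 and 40 CG dinucleotides. Other listed starts of the same genes differ: a second one of Scn2a has 47.7% G+C and 9 CG dinucleotides, one of Scn8a 53.3% and 12, and Cacnb4 has one with 69.7% and 27 and one with 49.7% and 5. Over all 32851 promoters the median was 52.7% G+C and 7 CG dinucleotides. The letters GGGCGG, on either strand, are in 14 of the 33 channel gene promoters and in 35.7% of all promoters; TATAAA, on either strand, is in 2 of the 33 (a second promoter of Scn2a and one of Cacna1d) and in 13.6% of all. A match is a description of the letters and not a binding site.

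Of 8 sodium channel pore genes, 3 fell in GFAP cortex, 6 in SYN1 cortex, 4 in GFAP hippocampus, 0 in NES hippocampus and 4 in GFAP SVZ tumors. In the same order, 18.8%, 20.5%, 25.2%, 2.86% and 21.4% of all genes were called lower. Scn2a encodes a main axonal channel of excitatory neurons. It had 6.86, 12.04, 11.48 and 11.30 in GFAP cortex tumors and 9.17, 10.18, 7.89 and 9.73 in SYN1 cortex tumors, against 12.96, 12.91, 12.97 and 12.86 in normal cortex. It ran from 8.96 to 11.15 (median 9.44) in GFAP hippocampus tumors and had 10.94, 11.95, 12.38 and 11.80 in NES hippocampus tumors, against 12.76, 12.35, 12.79 and 12.75 in normal hippocampus. GFAP SVZ tumors had 8.71, 9.07 and 10.82. On the probe set used, every tumor array lay below its normal arrays except NES tumor 3, which was inside the normal range. The log2 differences were -2.50 ± 0.77 (SE) in GFAP cortex, -3.68 ± 0.77 in SYN1 cortex, -2.67 ± 0.68 in GFAP hippocampus and -3.26 ± 0.73 in GFAP SVZ tumors (limma adjusted p = 0.0152, 0.000364, 0.00268 and 0.000827), and -0.89 ± 0.77 in NES tumors (adjusted p = 0.534). The SYN1 difference is a 12.8-fold lower level. Without GFAP cortex tumor 1 the GFAP cortex difference was -1.32 (limma adjusted p = 0.0948). The group means of all 14 probe sets of Scn2a were lower in every tumor group. The differences were -3.92 to -2.97 in SYN1 cortex, -2.81 to -1.57 in GFAP hippocampus and -1.05 to -0.74 in NES tumors. Single arrays varied by probe set. On several other probe sets GFAP hippocampus tumor 5 was above every normal hippocampus array, for example 9.88 against 8.84 to 9.52.

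Scn8a, which carries much of the firing at the initial segment and nodes, was below normal on every tumor array. It had 6.74, 9.94, 9.60 and 8.86 in GFAP cortex tumors and 7.47, 8.29, 6.95 and 7.63 in SYN1 cortex tumors, against 11.16, 11.01, 11.01 and 10.92 in normal cortex. In the hippocampus it had 7.20 to 9.81 (median 8.45) in GFAP tumors and 8.51, 10.13, 9.93 and 9.88 in NES tumors, against 11.13, 10.49, 10.86 and 10.84 in normal tissue, and GFAP SVZ tumors had 6.88, 7.11 and 8.75. Tumor and normal arrays did not overlap in any of the 5 groups. Scn8a fell, with log2 differences of -2.24 ± 0.55, -3.44 ± 0.55, -2.38 ± 0.49 and -3.35 ± 0.52 in GFAP cortex, SYN1 cortex, GFAP hippocampus and GFAP SVZ tumors (limma adjusted p = 0.00344, 1.99e-05, 0.000375 and 1.99e-05). Without GFAP cortex tumor 1 the GFAP cortex difference was -1.56 (adjusted p = 0.0234). In NES tumors the difference was -1.22 ± 0.55 with adjusted p = 0.186, and without the 4 arrays that stood apart it passed (adjusted p = 0.0432).

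Scn1a is the channel of fast-spiking inhibitory neurons, and its loss in mouse and human causes epilepsy. Cortex tumors had 5.67, 9.03, 8.01 and 7.72 (GFAP) and 6.72, 7.73, 5.99 and 6.66 (SYN1), against 10.03, 10.06, 9.85 and 9.76 in normal cortex. Hippocampus tumors had 6.69 to 8.99 (median 7.5, GFAP) and 7.88, 9.01, 9.30 and 9.22 (NES), against 9.36, 8.93, 9.30 and 9.30 in normal hippocampus, and SVZ tumors had 6.12, 6.41 and 7.70. The cortex and SVZ tumors were clear of normal tissue, whereas GFAP hippocampus and NES tumors overlapped it. Differences were -2.31 ± 0.57 in GFAP cortex, -3.15 ± 0.57 in SYN1 cortex and -2.83 ± 0.54 in GFAP SVZ tumors (limma adjusted p = 0.00348, 7.72e-05 and 0.000166), the first being -1.67 without GFAP cortex tumor 1 (adjusted p = 0.0246). The GFAP hippocampus difference, -1.40 ± 0.50 (adjusted p = 0.0278), lost its call when GFAP hippocampus tumor 1, 4 or 7 or normal hippocampus 1, 3 or 4 was left out, and the NES difference was -0.37 ± 0.57 (adjusted p = 0.75).

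Scn3a, an embryonic and early postnatal channel, fell in SYN1 cortex (-1.61 ± 0.37), GFAP hippocampus (-1.23 ± 0.33) and GFAP SVZ tumors (-1.62 ± 0.36), with limma adjusted p = 0.000986, 0.00418 and 0.000629. Scn7a encodes the sodium-level sensing channel of glia. It fell in SYN1 cortex tumors by 1.35 ± 0.39 (adjusted p = 0.00638), and its highest value anywhere was 8.68 in GFAP cortex tumor 1, the array with the high fibroblast and Schwann cell markers; the part of those markers in that value was not tested. The sensory neuron genes Scn10a and Scn11a stayed between 5.69 and 6.48 on every array, and of the 2 only Scn10a in SYN1 cortex tumors was called (-0.36 ± 0.11, adjusted p = 0.0112). That call was lost without SYN1 tumor 1 or normal cortex 3.

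Scn9a, best known for pain-sensing neurons, was high on a few tumor arrays. SYN1 cortex tumors 2 and 3 had 8.71 and 9.07, tumors 1 and 4 had 6.17 and 6.12, and normal cortex had 6.37 to 6.64. Both Scn9a probe sets showed it, the other with 7.90 in tumors 2 and 3, against 5.51 in tumor 1 and 5.47 in tumor 4. As a group the difference was 1.03 ± 0.44 (limma adjusted p = 0.0681); it was called higher without tumor 1 (1.49, adjusted p = 0.00762) and without tumor 4 (1.5, adjusted p = 0.00678). NES hippocampus tumor 3 was the next highest tumor at 8.07, against 6.78 to 6.87 in normal hippocampus.

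**Figure D3:**
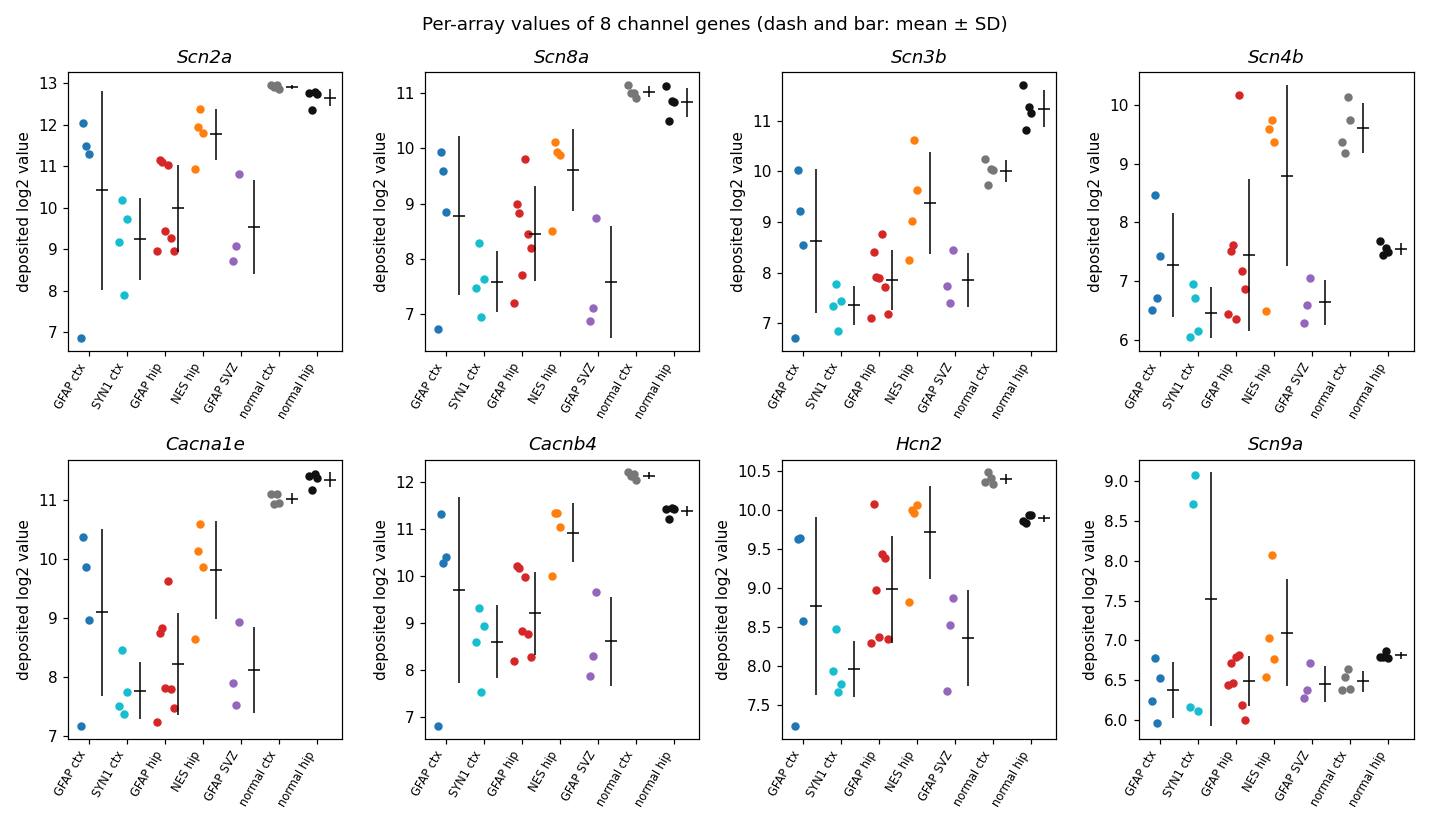
Deposited log2 values of 8 channel genes, 1 point per array, with group mean ± SD beside the points; ctx is cortex and hip is hippocampus, tumor groups left of normal groups. Scn8a has no tumor array at normal level, Scn4b has NES tumors 2 to 4 and GFAP hippocampus tumor 5 above normal hippocampus, and Scn9a is high in SYN1 cortex tumors 2 and 3.

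The accessory beta subunits bind the pore, tune its gating and act as adhesion molecules. Scn2b had 6.17, 9.96, 9.64 and 8.99 in GFAP cortex tumors and 7.46, 8.65, 7.0 and 7.87 in SYN1 cortex tumors, against 11.35, 11.24, 11.27 and 11.19 in normal cortex. It had 7.25 to 10.96 (median 8.70) in GFAP hippocampus tumors and 8.77, 10.45, 10.66 and 10.42 in NES tumors, against 10.90, 10.81, 11.19 and 11.05 in normal hippocampus, and 7.47, 7.46 and 8.74 in GFAP SVZ tumors. GFAP hippocampus tumor 5 was the 1 tumor array at normal level. Scn2b fell, with log2 differences of -2.57 ± 0.67 in GFAP cortex, -3.52 ± 0.67 in SYN1 cortex, -2.17 ± 0.60 in GFAP hippocampus and -3.24 ± 0.64 in GFAP SVZ tumors (limma adjusted p = 0.00553, 0.000149, 0.00508 and 0.000246), and of -1.73 in GFAP cortex without tumor 1 (adjusted p = 0.0387). All 4 NES tumors were below normal hippocampus, yet the difference of -0.91 ± 0.67 was not called (adjusted p = 0.456).

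Scn3b stood out in the hippocampus. GFAP hippocampus tumors had 7.11 to 8.76 (median 7.90) and NES tumors 8.24, 9.02, 10.62 and 9.64, against 11.71, 10.81, 11.27 and 11.16 in normal hippocampus. Both groups were clear of normal tissue, and Scn3b fell, with log2 differences of -3.38 ± 0.44 in GFAP (limma adjusted p = 2e-06) and -1.86 ± 0.50 in NES tumors (adjusted p = 0.0178). The NES call was lost without NES tumor 1 (-1.48, adjusted p = 0.122), NES tumor 2 (-1.74, adjusted p = 0.0582) or normal hippocampus 1 (-1.70, adjusted p = 0.0649). In cortex it had 6.71, 10.04, 9.22 and 8.55 in GFAP tumors and 7.35, 7.77, 6.86 and 7.45 in SYN1 tumors, against 10.24, 9.73, 10.04 and 10.02 in normal tissue. GFAP cortex tumor 2 was inside the normal range, the difference of -1.38 ± 0.50 was called at adjusted p = 0.0383, and it was lost without GFAP cortex tumor 1 (-0.74, adjusted p = 0.215), GFAP cortex tumor 4 or any 1 normal cortex array. SYN1 cortex tumors and GFAP SVZ tumors (7.73, 7.40 and 8.44) were lower too, with differences of -2.65 ± 0.50 and -2.77 ± 0.48 (adjusted p = 0.000118 and 5.36e-05).

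Scn4b, the subunit tied to resurgent sodium current, was called lower in both groups of cortex tumors and in neither group of hippocampus tumors. Cortex tumors had 6.50, 8.46, 6.71 and 7.42 (GFAP) and 6.04, 6.94, 6.70 and 6.15 (SYN1), against 9.37, 9.17, 10.13 and 9.74 in normal cortex, and it fell, with log2 differences of -2.33 ± 0.64 and -3.14 ± 0.64 (limma adjusted p = 0.0074 and 0.000272). In hippocampus, GFAP tumors had 6.35 to 10.17 (median 7.16) and NES tumors 6.48, 9.60, 9.74 and 9.38, against 7.67, 7.44, 7.56 and 7.5 in normal hippocampus. Neither difference was called (-0.10 ± 0.56, adjusted p = 0.906, and 1.25 ± 0.64, adjusted p = 0.252), and without NES tumor 1 the NES difference of 2.02 was called higher (adjusted p = 0.0465). Tested directly, the change in hippocampus GFAP tumors minus that in cortex GFAP tumors was not called for Scn4b. Without the 4 arrays that stood apart it was 1.51 ± 0.75 (limma adjusted p = 0.26). GFAP SVZ tumors, at 6.29, 6.58 and 7.04, differed by -1.94 ± 0.61 from the mean of both normal regions (adjusted p = 0.0128), a call lost without SVZ tumor 1 (-1.76, adjusted p = 0.0662).

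The pore genes of P/Q-, N- and R-type calcium channels, which serve transmitter release, fell in the 4 groups other than NES tumors. Cacna1e (R-type) changed most. It had 7.17, 10.39, 9.87 and 8.98 in GFAP cortex tumors and 7.5, 8.46, 7.38 and 7.75 in SYN1 cortex tumors, against 11.11, 10.94, 11.11 and 10.96 in normal cortex. It had 7.24 to 9.64 (median 7.82) in GFAP hippocampus tumors and 8.65, 10.15, 10.60 and 9.87 in NES tumors, against 11.41, 11.17, 11.45 and 11.38 in normal hippocampus, and 7.90, 7.53 and 8.93 in GFAP SVZ tumors. All tumor arrays were below all normal arrays of their region. Cacna1e fell, with log2 differences of -1.93 ± 0.53, -3.26 ± 0.53, -3.13 ± 0.47 and -3.07 ± 0.51 in GFAP cortex, SYN1 cortex, GFAP hippocampus and GFAP SVZ tumors (limma adjusted p = 0.00751, 2.39e-05, 1.11e-05 and 3.32e-05). In NES tumors it was -1.54 ± 0.53 (adjusted p = 0.0708; 0.00752 without the 4 arrays that stood apart), and without GFAP cortex tumor 1 the GFAP cortex difference was -1.29 (adjusted p = 0.0526). Cacna1a (P/Q-type) lay between -1.99 and -1.42 and Cacna1b (N-type) between -2.26 and -1.37 over the 4 groups, all called, and without GFAP cortex tumor 1 their GFAP cortex differences of -1.67 and -1.55 became -1.11 and -0.96, both still called.

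The L-type genes signal from the cell body and dendrites. Cacna1c fell in SYN1 cortex (-1.09 ± 0.36) and GFAP hippocampus tumors (-1.24 ± 0.32), and Cacna1d in SYN1 cortex (-1.54 ± 0.27), GFAP hippocampus (-1.16 ± 0.24) and GFAP SVZ tumors (-1.50 ± 0.26), with limma adjusted p from 4.89e-05 to 0.018. The Cacna1c call in SYN1 tumors was lost without SYN1 tumor 3. The retinal gene Cacna1f and the skeletal muscle gene Cacna1s were called in no group and stayed between 5.93 and 7.05. The highest of these, 7.05 for Cacna1s, was on GFAP cortex tumor 1, where the muscle markers were also high. Cacna1f, Cacnb2, Scn10a and Scn11a (6.60, 6.63, 6.23 and 6.26) were also highest of the GFAP cortex tumors on that array. The part of the muscle markers in the Cacna1s value was not tested.

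The T-type genes, whose channels open at small depolarizations, differed among themselves. Cacna1i had 7.14, 9.23, 8.26 and 8.19 in GFAP cortex tumors and 7.60, 7.87, 7.65 and 7.63 in SYN1 cortex tumors, against 10.04, 10.10, 10.16 and 9.97 in normal cortex. In hippocampus it had 7.15 to 8.32 (median 7.68) in GFAP tumors and 7.86, 9.15, 9.18 and 9.02 in NES tumors, against 9.28, 9.09, 9.39 and 9.25 in normal tissue, and in GFAP SVZ tumors 7.25, 7.33 and 7.85. It was low in every tumor group but NES, where tumors 2 and 3 overlapped normal hippocampus. Cacna1i fell, with log2 differences of -1.86 ± 0.31, -2.38 ± 0.31, -1.57 ± 0.28 and -2.19 ± 0.30 in GFAP cortex, SYN1 cortex, GFAP hippocampus and GFAP SVZ tumors (limma adjusted p = 0.000162, 2.29e-06, 8.12e-05 and 4.7e-06).

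Cacna1g had 8.0, 8.83, 7.91 and 8.19 in GFAP cortex tumors and 7.47, 8.13, 7.11 and 7.34 in SYN1 cortex tumors, against 9.64, 9.45, 9.51 and 9.61 in normal cortex. In hippocampus GFAP tumors had 7.23 to 8.81 (median 7.63) and NES tumors 7.88, 8.97, 9.13 and 9.36, against 9.01, 8.80, 8.89 and 8.81 in normal tissue, and GFAP SVZ tumors had 7.16, 7.23 and 7.85. NES tumors 2 to 4 were at or above normal hippocampus. The log2 differences were -1.32 ± 0.31 in GFAP cortex, -2.04 ± 0.31 in SYN1 cortex, -1.04 ± 0.27 in GFAP hippocampus and -1.80 ± 0.29 in GFAP SVZ tumors (limma adjusted p = 0.00234, 9.99e-06, 0.00333 and 2.9e-05). Cacna1h was at -0.30 ± 0.29 in GFAP cortex tumors (adjusted p = 0.511), and fell in GFAP hippocampus tumors by 1.69 ± 0.26 (adjusted p = 1.56e-05) and in NES tumors by 1.12 ± 0.29 (adjusted p = 0.0157). It also fell in SYN1 cortex tumors (-0.82 ± 0.29, adjusted p = 0.0284), a call lost without SYN1 tumor 2, 3 or 4 or normal cortex 1 or 3, and in GFAP SVZ tumors (-0.93 ± 0.28, adjusted p = 0.0099), a call lost without SVZ tumor 2. The NES call was lost without NES tumor 1 (adjusted p = 0.0933), NES tumor 2 (adjusted p = 0.0515) or normal hippocampus 1 (adjusted p = 0.0511). The changes of Cacna1h in the hippocampus and cortex GFAP tumors differed from each other when the 4 arrays that stood apart were left out (-1.69 ± 0.32, hippocampus minus cortex, adjusted p = 0.00492) but were not called with them (adjusted p = 0.102), and the same held for Scn3b (-2.66 ± 0.57, adjusted p = 0.013, and adjusted p = 0.19 with them).

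**Figure D4:**
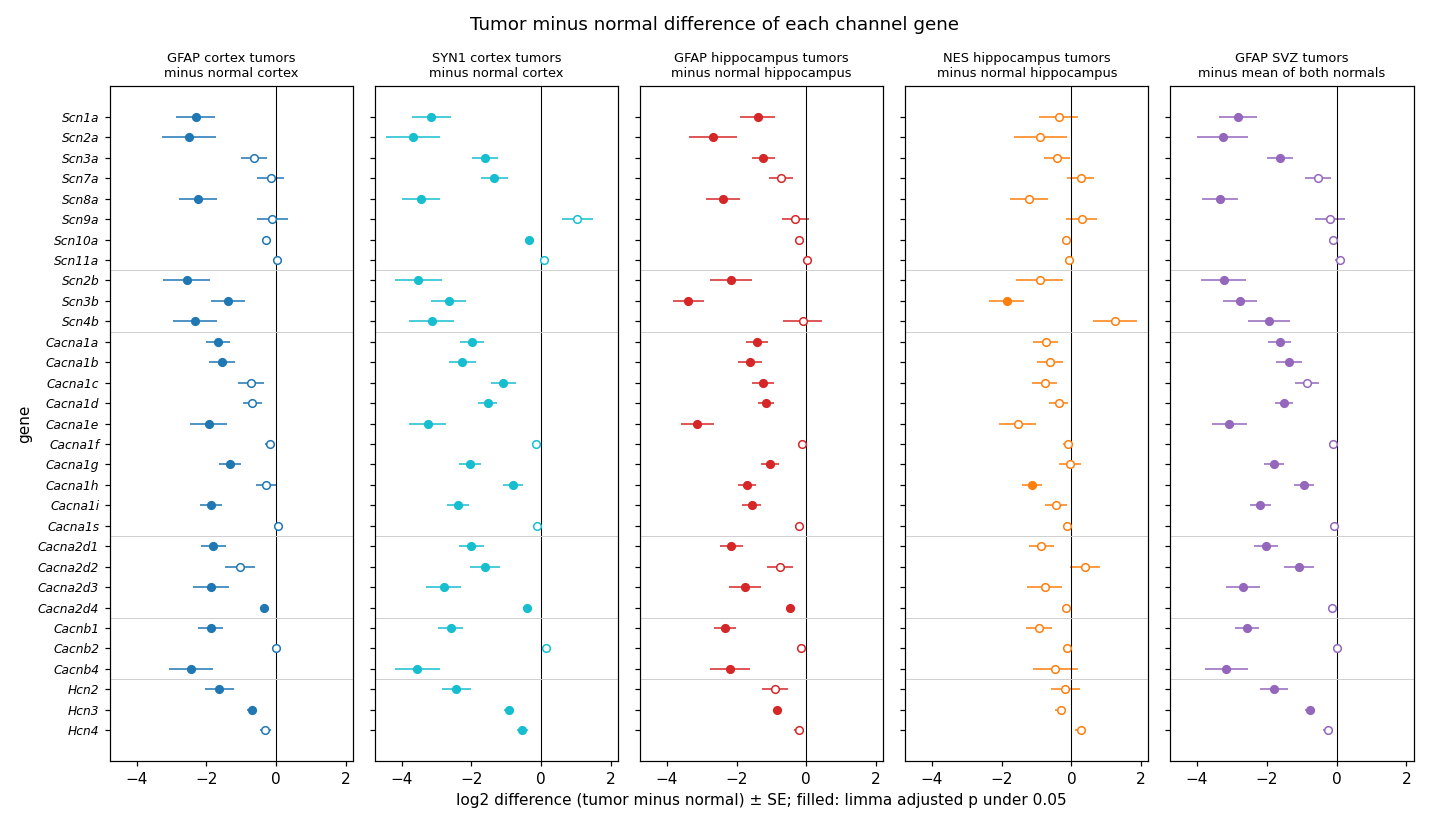
Log2 difference, tumor minus normal, ± SE for each channel gene (rows) in the 5 tumor groups (panels); filled points have a limma adjusted p under 0.05. SYN1 cortex tumors have 26 filled points and NES hippocampus tumors 2, all of them left of 0.

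Alpha-2-delta subunits bring the pore to the membrane; Cacna2d1 and Cacna2d2 proteins bind gabapentin. Cacna2d1 had 8.33, 10.76, 9.62 and 9.87 in GFAP cortex tumors and 9.05, 9.66, 9.62 and 9.41 in SYN1 cortex tumors, against 11.65, 11.29, 11.42 and 11.40 in normal cortex. It had 8.11 to 9.70 (median 9.42) in GFAP hippocampus tumors and 9.84, 10.37, 11.04 and 10.45 in NES tumors, against 11.54, 10.95, 11.33 and 11.37 in normal hippocampus, and 9.63, 8.97 and 9.42 in GFAP SVZ tumors. It fell, with log2 differences of -1.80 ± 0.36, -2.0 ± 0.36, -2.15 ± 0.32 and -2.03 ± 0.35 in the 4 groups other than NES (limma adjusted p = 0.000805, 8.05e-05, 1.13e-05 and 5.02e-05), a narrow spread among tumor groups. Cacna2d3 ranged more widely. It had 6.54, 9.77, 9.24 and 8.74 in GFAP cortex tumors and 7.98, 7.87, 7.02 and 7.64 in SYN1 cortex tumors, against 10.51, 10.24, 10.57 and 10.39 in normal cortex. In hippocampus it had 7.71 to 9.90 (median 8.37) in GFAP and 8.10, 10.20, 10.35 and 9.44 in NES tumors, against 10.51, 10.15, 10.27 and 10.24 in normal tissue, and in GFAP SVZ tumors 7.33, 7.59 and 8.11. NES tumors 2 and 3 lay inside the normal range and tumor 1 far below it. The log2 differences of Cacna2d3 were -1.86 ± 0.51 in GFAP cortex (-1.18 without GFAP cortex tumor 1, adjusted p = 0.049), -2.80 ± 0.51 in SYN1 cortex, -1.76 ± 0.45 in GFAP hippocampus and -2.68 ± 0.48 in GFAP SVZ tumors (limma adjusted p = 0.0072, 7.84e-05, 0.00271 and 8.76e-05).

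Cacna2d2 fell in SYN1 cortex (-1.61 ± 0.43, limma adjusted p = 0.00386) and GFAP SVZ tumors (-1.08 ± 0.42, adjusted p = 0.0409), the second call being lost on leaving out any 1 of the 3 SVZ tumors. In NES tumor 3 it reached 10.49, against 8.62 to 8.80 in normal hippocampus. Cacna2d4 fell, with log2 differences of -0.36 ± 0.10, -0.42 ± 0.10 and -0.47 ± 0.09, in GFAP cortex, SYN1 cortex and GFAP hippocampus tumors (adjusted p = 0.00985, 0.00149 and 0.000202).

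The intracellular beta subunits carry the pore out of the endoplasmic reticulum. Cacnb4, the gene of the lethargic mouse, had 6.80, 11.32, 10.28 and 10.40 in GFAP cortex tumors and 8.60, 9.33, 7.51 and 8.94 in SYN1 cortex tumors, against 12.21, 12.14, 12.17 and 12.05 in normal cortex. It had 8.19 to 10.21 (median 8.82) in GFAP hippocampus tumors and 10.00, 11.34, 11.34 and 11.04 in NES tumors, against 11.43, 11.23, 11.45 and 11.44 in normal hippocampus, and 7.86, 8.29 and 9.67 in GFAP SVZ tumors. Only NES tumors 2 and 3 overlapped normal tissue. Cacnb4 fell, with log2 differences of -2.44 ± 0.64 (-1.47 without GFAP cortex tumor 1, adjusted p = 0.0339), -3.55 ± 0.64, -2.19 ± 0.57 and -3.16 ± 0.62 in GFAP cortex, SYN1 cortex, GFAP hippocampus and GFAP SVZ tumors (limma adjusted p = 0.00583, 8.36e-05, 0.00337 and 0.000198), and was -0.46 ± 0.64 in NES tumors (adjusted p = 0.729).

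Cacnb1 had 7.69, 9.44, 9.0 and 8.70 in GFAP cortex tumors and 7.95, 8.24, 7.96 and 7.82 in SYN1 cortex tumors, against 10.73, 10.51, 10.54 and 10.53 in normal cortex. In hippocampus it had 7.36 to 8.86 (median 7.97) in GFAP and 8.32, 9.45, 10.31 and 9.63 in NES tumors, against 10.49, 10.25, 10.44 and 10.24 in normal tissue, and in GFAP SVZ tumors 7.65, 7.54 and 8.49. Again NES tumor 3 alone of all tumors was inside the normal range. Cacnb1 fell, with log2 differences of -1.87 ± 0.36, -2.59 ± 0.36, -2.33 ± 0.32 and -2.57 ± 0.34 in the 4 groups other than NES (limma adjusted p = 0.000489, 3.75e-06, 3.43e-06 and 3.3e-06). Cacnb2, the main cardiac form, stayed between 6.25 and 6.77 on all arrays and was called in no group.

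Of the HCN genes, Hcn2, the thalamic and widespread form, changed most. It had 7.23, 9.64, 9.64 and 8.58 in GFAP cortex tumors and 7.94, 8.48, 7.67 and 7.77 in SYN1 cortex tumors, against 10.36, 10.49, 10.42 and 10.34 in normal cortex. In hippocampus it had 8.30 to 10.08 (median 8.98) in GFAP tumors and 8.82, 10.01, 9.97 and 10.07 in NES tumors, against 9.87, 9.84, 9.94 and 9.94 in normal tissue, and GFAP SVZ tumors had 7.68, 8.53 and 8.88. GFAP hippocampus tumor 2 and NES tumors 2 to 4 were above every normal hippocampus array. Hcn2 fell, with log2 differences of -1.63 ± 0.42 in GFAP cortex, -2.43 ± 0.42 in SYN1 cortex and -1.79 ± 0.40 in GFAP SVZ tumors (limma adjusted p = 0.00491, 4.67e-05 and 0.000803). In GFAP hippocampus tumors it was -0.91 ± 0.37 (adjusted p = 0.0514; 0.0209 without the 4 arrays that stood apart), and it was also called there without GFAP hippocampus tumor 2, 5 or 6. Hcn3 fell in the 4 groups other than NES, with differences from -0.92 to -0.69. Hcn4, the pacemaker form of the sinoatrial node, fell in SYN1 cortex tumors by 0.54 ± 0.16 (adjusted p = 0.00748), and its differences in the other 4 groups, between -0.31 and 0.27, were not called. Set directly against GFAP cortex tumors, SYN1 tumors did not pass the test for Hcn4.

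Set directly against GFAP hippocampus tumors, NES hippocampus tumors had higher channel levels. Of 31 channel genes, 10 (32.3%) were called higher and 0 lower, against 6.12% of all genes higher and 2.09% lower. They were Cacna1e (1.60 ± 0.47), Scn3b (1.52 ± 0.44), Cacnb1 (1.40 ± 0.32), Cacna2d1 (1.27 ± 0.32), Cacna1i (1.12 ± 0.28), Cacna1g (1.0 ± 0.27), Cacna1d (0.79 ± 0.24), Hcn3 (0.53 ± 0.13), Hcn4 (0.49 ± 0.14) and Cacna2d4 (0.31 ± 0.09), with limma adjusted p from 0.018 to 0.0413. Cacna2d1 was the 1 gene whose groups did not overlap, with 9.84 to 11.04 in NES tumors against 8.11 to 9.70 in GFAP tumors. The count depended on the arrays: it was 18 without NES tumor 1 (12.7% of all genes were then higher), 0 without NES tumor 2, 3 or 4, 17 without the 4 arrays that stood apart (10.4%), and 0 when only these 11 arrays were fitted (0% of all genes). Neuron markers, at -1.35 to -0.07 in NES and -2.43 to -0.81 in GFAP hippocampus tumors, were also higher, with 3 of 18 called and a median difference of 1.11. Of 8 oligodendrocyte precursor markers 3 were called higher and 0 lower (median 0.86), and of 7 oligodendrocyte markers 1 was called higher (median 1.15). The part of these markers in the channel values was not tested.

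Among the other tumor comparisons no channel gene was called with limma. SYN1 minus GFAP cortex tumors gave 0 of 31 (0.176% of all genes were called), 8 at an unadjusted p under 0.05, and a median of -0.70. Without the 4 arrays that stood apart it gave 16 lower and 0 higher (7.77% of all genes lower), led by Scn2a (-2.36 ± 0.53, adjusted p = 0.0108), Cacnb4 (-2.07 ± 0.47, adjusted p = 0.0111) and Cacna1e (-1.97 ± 0.42, adjusted p = 0.01), and without GFAP cortex tumor 1 alone 12 lower (4.51% of all genes lower). GFAP hippocampus minus GFAP cortex tumors gave 0 (2.68% of all genes called; 6 at an unadjusted p under 0.05), and 7 lower without the 4 arrays (2.0% of all genes lower). GFAP SVZ minus GFAP cortex tumors gave 0 (0.00502%; 5 at an unadjusted p under 0.05) and 13 lower without them (7.1% of all genes lower). GFAP SVZ minus GFAP hippocampus tumors gave 0 (0.316%; 1 at an unadjusted p under 0.05) with and without them. The GFAP change in hippocampus minus that in cortex gave 0 (0.838% of all genes called), with 3 at an unadjusted limma p under 0.05. Without the 4 arrays it gave 2 lower (0.953% of all genes lower), Cacna1h and Scn3b as given above.

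Normal hippocampus and normal cortex had their own channel profiles. With the spread taken over all 30 arrays limma called 0 of 31 genes (1.29% of all genes were called; 5 channel genes at an unadjusted p under 0.05), although 17 of the 31 (54.8%) did not overlap between the regions, against 18.3% of all genes. Fitted on the 8 normal arrays alone, 12 were called, 4 higher and 8 lower in hippocampus (13.9% of all genes). Higher in hippocampus were Scn3b (11.24 ± 0.37, against 10.01 ± 0.21 in cortex, SD, n = 4 each), Cacna1h (9.48 ± 0.17, against 8.77 ± 0.05), Cacna1e (11.35 ± 0.12, against 11.03 ± 0.09) and Scn9a (6.81 ± 0.04, against 6.48 ± 0.13). Lower was above all Scn4b, at 7.54 ± 0.10 in hippocampus, against 9.60 ± 0.42 in cortex (difference -2.06 ± 0.16, limma adjusted p = 5.25e-07 on these arrays). Cacna1i (-0.82 ± 0.08), Cacnb4 (-0.76 ± 0.08), Scn1a (-0.70 ± 0.10), Cacna1g (-0.67 ± 0.08), Hcn2 (-0.50 ± 0.07), Cacna1a (-0.39 ± 0.10) and Cacna2d2 (-0.39 ± 0.07) were the other lower ones.

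Many of the genes that work with these channels fell as well, and a few rose. Called lower among all genes were 18.8% (GFAP cortex), 20.5% (SYN1 cortex), 25.2% (GFAP hippocampus), 2.86% (NES hippocampus) and 21.4% (GFAP SVZ tumors). Of 11 sodium channel modulators and anchors, which hold the channels at the initial segment or adjust their inactivation, 11 fell in GFAP cortex, 11 in SYN1 cortex, 10 in GFAP hippocampus, 2 in NES hippocampus and 10 in GFAP SVZ tumors. Fgf12 was at -2.38, -3.49, -1.96, -0.41 and -2.81 in that order, the anchor gene Ank3 at -1.38, -1.57, -1.34, -0.54 and -1.67, and Fgf13 and Fgf11 were the ones that fell in NES tumors (-1.66 and -0.90). All 4 measured genes of the sodium leak channel complex (Nalcn, Unc79, Unc80 and Fam155a) fell in each group but NES, where 0 did; Unc80 was at -2.22, -3.18, -2.25, -0.85 and -2.89. The HCN trafficking gene Pex5l was at -1.79, -2.68, -1.77, -0.98 and -2.45, called in all but NES tumors.

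Of 7 calcium channel gamma subunits and related AMPA receptor regulators, 4, 5, 4, 1 and 4 fell in GFAP cortex, SYN1 cortex, GFAP hippocampus, NES hippocampus and GFAP SVZ tumors. Cacng3 led with -2.96, -3.54, -2.65, -0.79 and -3.55, and Cacng8 was the 1 that fell in NES tumors (-1.82). Of 12 other calcium channel partners, 6, 6, 6, 0 and 8 fell, among them the release-site genes Rims1 (-2.47, -3.46, -1.93, -0.88 and -2.98) and Rimbp2 (-2.08, -3.33, -2.39, -1.04 and -3.05). Gem and Rrad, small GTPases that inhibit calcium channels at the membrane, rose in all groups but NES tumors: Gem was at 1.19, 2.43, 1.23, 0.57 and 1.08, and Rrad at 0.41, 0.69, 0.43, 0.37 and 0.52. Stac also rose in SYN1 cortex tumors (1.88). These partner genes were called over all 19938 genes, and their values were chosen for print after they were seen. The shares of all genes called lower given above stand beside every partner list.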

How the data were processed

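Total RNA of 22 tumor and 8 normal brain samples was hybridised to Affymetrix Mouse Gene 1.0 ST arrays. The authors deposited log2 values per probe set, made with Affymetrix Power Tools, MAS5 and RMA (versions not given), per the submitters' processing notes. How arrays were normalized to each other is not given in the sources used here. The values ran from 0.133 to 16.07, and the array medians lay between 7.03 and 7.30. Arrays give no read depth, so the number of arrays limits the precision.

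Of 35556 probe sets, 21789 had 1 gene symbol in the platform annotation, 1621 several and 12146 none, and 21698 of the first kind matched RefSeq names. The probe set with the highest mean over all 30 arrays stood for each of 19938 genes. Scn2a, Cacna2d1 and Scn9a had several.

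Group means were fitted to all 30 arrays with limma 3.58.1 in R 4.3.3, with no covariate, and p-values were adjusted by Benjamini-Hochberg over all genes in each of 12 comparisons. Tables and figures used Python 3.11.15, pandas 2.3.3 and matplotlib 3.10.9. The fit was tested on simulated data. Alternatives were centring, quantile normalization, other probe set rules, a filter on dim genes, other limma settings and thresholds, fewer arrays, a replicate block and leaving out each array in turn.

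The members, the marker and partner lists and the alternatives were chosen with earlier results of these data known. Values are given array by array for called members whose groups did not overlap, from the largest difference down to 12 genes. The same holds for members called among tumors or between normal regions, up to 6. For these genes the 7 GFAP hippocampus tumors are given by range and median only. All other members are given by range and counts, with Scn9a named after its values were seen. In 1 of 12 pairs of groups, GFAP hippocampus and GFAP cortex tumors, every same-numbered pair of samples deviated together (r = 0.277 to 0.306), and over all 12 pairs of groups r ran from -0.394 to 0.565. The labels do not say what a number stands for.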

Additional observations from a re-analysis of the deposited data

Results flagged for a closer look

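Single arrays far from the others of their group were found in 18 of 186 sets of a gene and a group, by Dixon's test of the gap to the nearest array over the range. Chance alone passes that test in about 1 of 20 sets. The flagged sets lay on 7 arrays. GFAP SVZ tumors, with 3 arrays, were not put to this test.

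GFAP cortex tumor 1 was low for Cacna1a (7.56, others 9.58 to 9.96), Cacna1h (7.32, others 8.80 to 8.93) and Scn2a (6.86, others 11.30 to 12.04), and high for Cacnb2 (6.63, others 6.35 to 6.36). GFAP cortex tumor 2 was high for Hcn4 (7.42, others 6.86 to 6.94).

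NES hippocampus tumor 1 was low for Cacna1i (7.86, others 9.02 to 9.18), Hcn2 (8.82, others 9.97 to 10.07), Scn2b (8.77, others 10.42 to 10.66), Scn4b (6.48, others 9.38 to 9.74) and Scn8a (8.51, others 9.88 to 10.13). GFAP hippocampus tumor 5 was high for Scn4b (10.17, others 6.35 to 7.61) and Cacnb2 (6.77, others 6.25 to 6.39).

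Among normal arrays, hippocampus 2 was low for Cacnb4 (11.23, others 11.43 to 11.45), Scn1a (8.93, others 9.30 to 9.36) and Scn2a (12.35, others 12.75 to 12.79) and high for Hcn4 (7.19, others 7.05 to 7.06). Normal hippocampus 3 was high for Scn9a (6.87, others 6.78 to 6.79), and normal cortex 1 for Cacnb1 (10.73, others 10.51 to 10.54).

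The change in NES tumors differed from that in GFAP tumors of the hippocampus, by limma's test of the difference, for Cacna1e (1.60), Scn3b (1.52), Cacnb1 (1.40), Cacna2d1 (1.27), Cacna1i (1.12), Cacna1g (1.00), Cacna1d (0.79), Hcn3 (0.53), Hcn4 (0.49) and Cacna2d4 (0.31), all log2 values, NES minus GFAP. Both changes are set against the same normal hippocampus arrays, which cancel in the difference. Of all genes, 6.12% were called higher in this comparison. The number of channel calls was 0 without NES tumor 2, 3 or 4, and 0 with only the arrays of these groups fitted. It was 18 without NES tumor 1 and 22 with array weights.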

How the results depend on the processing

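The counts of channel genes called lower in GFAP cortex, SYN1 cortex, GFAP hippocampus and GFAP SVZ tumors stayed within 1.5 times the reported counts under every alternative, and no member's difference that was called changed sign. Leaving out each array of the groups compared in turn, as for the ranges below, gave 16 to 23, 24 to 26, 19 to 21 and 19 to 21 called lower. All arrays share the estimate of spread. Without GFAP cortex tumor 1 the counts in GFAP hippocampus and GFAP SVZ tumors were 22 and 22 (27.8% and 22.9% of all genes lower). Over the 31 genes in the 5 comparisons with normal tissue and the 10 called in NES minus GFAP hippocampus tumors, alternatives left the call of 3403 values as it was, removed 171 and added 82; other comparisons are not in these counts. Cause was not tested for any change below.

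In NES hippocampus tumors the 2 genes called lower became 6 with each array centred on its median (7.33% of all genes lower, against 2.86% as reported), 7 with only the compared arrays fitted (5.3%), 11 with array weights (20.6%), 0 at an adjusted p under 0.01, 4 with the replicate block (4.83%), 7 without the 4 arrays that stood apart (8.2%), and 0 to 4 leaving out single arrays. With centring 60.5% of all called genes there were lower, against 33.5% as deposited, and the median of all genes was -0.20, against -0.04. With quantile normalization and with array weights, 1 gene was called higher than normal in SYN1 cortex tumors (21.2% and 24.5% of all genes higher). In NES tumors 1 was called higher with array weights (18.2%). Leaving out single arrays gave 0 to 1 in each of these groups.

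For NES minus GFAP hippocampus tumors the 10 calls became 6 with centring (3.67% of all genes higher), 4 with quantile normalization (4.43%) and 0 with only these arrays (0%). They became 22 with array weights (14.3%), 0 at an adjusted p under 0.01 (0.01%) and 5 with a 2-fold minimum (2.23%). Without the 4 arrays there were 17 (10.4%), and leaving out single arrays gave 0 to 18. The share of all called genes that were lower in this comparison was 25.5%, against 67.5% with centring and 58.9% with quantile normalization. Centring also moved the median of all genes there to -0.16, against 0.06 as deposited, and the channel median was then 0.76.

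With array weights, without the 4 arrays and leaving out single arrays, the comparisons with 0 calls gave 17, 16 and 0 to 12 for SYN1 minus GFAP cortex, 5, 7 and 0 to 8 for GFAP hippocampus minus cortex, and 18, 13 and 0 to 3 for GFAP SVZ minus cortex tumors. Of all genes, 12.5%, 5.39% and 25.9% were called in those comparisons with array weights, and 13.3%, 10.5% and 11.8% without the 4 arrays. The highest counts on leaving out a single array came without GFAP cortex tumor 1, with 5.68%, 7.13% and 2.7% of all genes called. GFAP SVZ minus hippocampus tumors gave 1 with array weights (2.65% of all genes called) and 0 to 1 leaving out single arrays. The hippocampus change minus the cortex change gave 1 with centring (1.0% of all genes called), 5 with array weights (8.51%) and 2 without the 4 arrays (2.69%). It gave 0 to 2 leaving out single arrays. Normal hippocampus minus cortex gave 12 with only these arrays (13.9% of all genes called) and 9 with array weights (13.3%). It gave 1 each with the replicate block (1.95%), with GFAP hippocampus tumors 1 to 4 only (1.93%) and without the 4 arrays (2.48%). In GFAP hippocampus minus GFAP cortex tumors, the 1 pair of groups whose numbers paired, 0 channel genes were called with and without the block. The share of all genes called there rose from 2.68% to 9.8% with the block, and was 9.65% with GFAP hippocampus tumors 1 to 4 only. Numbers 5 to 7 occur only in GFAP hippocampus tumors, so the block also takes up those arrays and cannot isolate the pairing. Dim genes are compressed by background signal, which limits Scn10a, Scn11a, Cacna1f, Cacna1s and Cacnb2 most.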
